A study of Mus musculus with 8 samples.

Results

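The comparison described here sets mouse embryonic stem cells (mESCs) that received PFI-3 together with BI-9564 (P+B) against cells that received BI-9564 alone, which asks what is different when PFI-3 joins BI-9564. Its members were the 2 P+B libraries and the 2 BI-9564 libraries of the compound RNA-seq experiment, 4 of the 8 libraries in that experiment, and same-numbered libraries were treated as pairs. The other 4 libraries came from cells given DMSO, the solvent, or PFI-3 alone, 2 libraries each. All 4 groups were OG2 mESCs of mixed 129SVJ, C57B6 and CBA strain at passage 12 that carried c-Jun_TetOn, an inducible c-Jun transgene, and all had doxycycline at 2 µg/ml, so JUN was induced in the DMSO controls as well. The labels give 6 h of treatment for every group, whereas a legend of the study gives 8 h of JUN induction with 6 h of compound. The cells were grown without feeders in medium with serum, LIF, the MEK inhibitor PD0325901 and the GSK3 inhibitor Chir99021. The labels do not give the compound doses. In the colony assay of the study each compound was given at a lower dose in the combination than by itself. The legend of its expression assay by PCR states no lower dose for the combination. Because the dose of each compound in the P+B libraries is not settled, an added compound and a changed dose of BI-9564 cannot be told apart. Nothing in the labels says whether the replicates were separate cultures, so p-values measure the spread between these libraries only.

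BAF complexes are chromatin remodellers that slide or evict nucleosomes through the ATPases SMARCA4 (BRG1) and SMARCA2, and several of their subunits carry bromodomains, modules that bind acetylated lysines. PFI-3 binds the bromodomains of SMARCA4, SMARCA2 and the related subunit PBRM1, whereas BI-9564 binds those of BRD9 and BRD7. BRD7 and PBRM1 belong to the same BAF subtype, BRD9 to another, and the subtypes share the ATPase SMARCA4. JUN is a subunit of AP-1, a dimeric transcription factor whose partners come from the FOS and ATF families. The pattern TGANTCA is used below for its sites, although not every site of these dimers fits it. Forced JUN expression drives mESCs out of the pluripotent state toward adhesive, somatic-like cells, in what the study calls the pluripotent to somatic transition.

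Each value below is transcript abundance on the TPM scale, rounded by the authors to whole numbers, so a value of 3 or 4 has a rounding error of a sizeable part of itself. The libraries summed to between 991574 and 991897, between 10285 and 10451 genes per library reached 5, and the read depth is unknown because TPM does not keep it. Replicates of a group correlated across genes with Pearson r from 0.964 to 0.971 on the log2 scale. Of 12 mESC markers all 12 reached 5 in a library, with summed values of 3674 to 4712 in BI-9564 and 3888 to 4909 in P+B. Of 11 fibroblast markers 7 were at 0 in all 8 libraries, and the summed values were at most 5 in any library. Primitive endoderm markers summed to between 3 and 11 and neural progenitor markers to between 19 and 31. Trophoblast markers, of which 6 of 9 reached 5 in a library, summed to 22 and 29 in BI-9564 and to 28 in both P+B libraries.

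Most of the genes called between P+B and BI-9564 were lower in P+B. Of 10222 tested genes, 74 were lower and 8 were higher in P+B than in BI-9564 (adjusted p below 0.05 with a 1.5-fold change or more), which is 0.724% and 0.0783% of the tested genes (82 called in either direction, 0.802%). The genes that fell included Flnc, Emp1, Fosl1, Atf3, Anxa1 and the laminin-binding integrins Itga3 and Itga6. The genes that rose included Sp5, Gbx2, Cdx1 and Esrrb. Log2 differences of the called genes ran from −2.90 to −0.59 among those lower and from 0.62 to 2.00 among those higher, and 35 of the 74 and 4 of the 8 changed at least 2-fold. Over all tested genes the median log2 difference was 0.02, with 4525 genes (44.27%) lower. Without the tests, 319 genes were lower and 284 higher by 1.5-fold or more. All 82 called genes moved the same way in both pairs. The excess of lower genes was therefore one of the called genes and not of all tested genes. In 72 of the 74 lower genes both P+B libraries lay below both BI-9564 libraries, an arrangement found in 13.7% of all tested genes. In 8 of 8 higher genes both lay above (17.6% of all tested genes). The called genes were chosen on these same libraries, so these counts and the shared direction of the pairs follow largely from that choice. Tests were made with limma on log2(value + 1), all 8 libraries and the replicate number as a block. Without the block 20 genes passed (0.196%), all of them lower and all among the 82. These 20 included Flnc, Emp1, A730049H05Rik, Atf3, Plet1, Dusp5, Itga3, Akap2, Dusp14, Plaur, Mks1, Noct, Ahnak, Dusp1, Itga6, Aebp2, Slc20a1, Phlda1 and Myadm. Each call named below that is not in this list was lost without the block. The calls also rest on the spread shared by all 8 libraries, since 0 genes passed when only the 4 compared libraries were fitted (994 had an unadjusted p under 0.05). Every call was lost when any of those 4 libraries was left out.

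**Figure D1:**
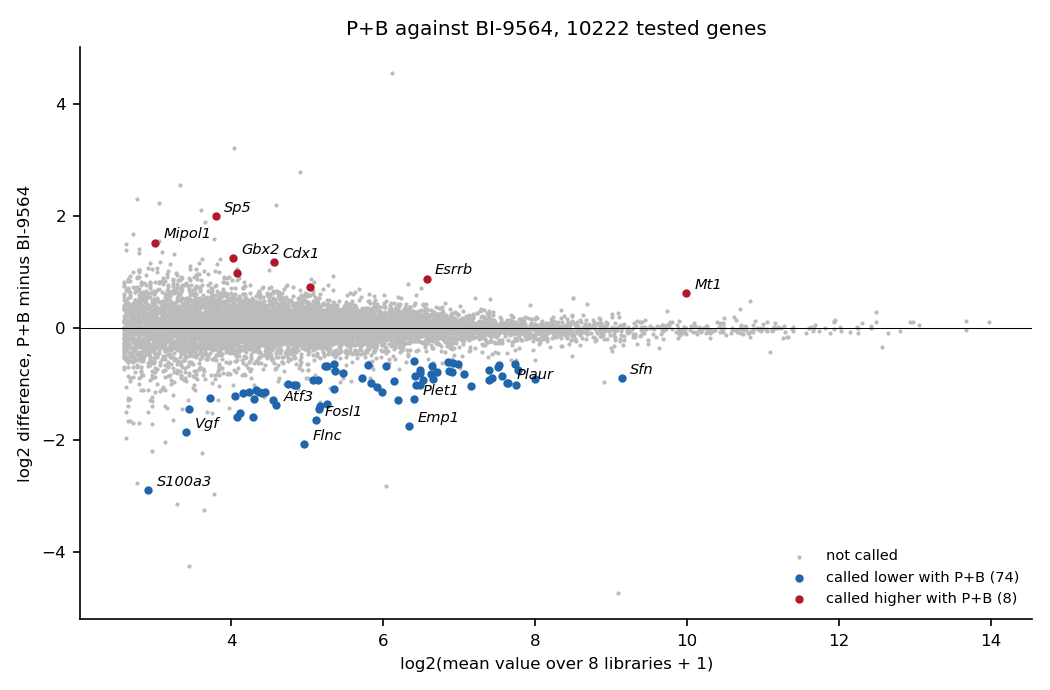
Each point is 1 of the 10222 tested genes, with log2 of the mean value over the 8 libraries plus 1 on the horizontal axis and the log2 difference between P+B and BI-9564 on the vertical axis. The 74 genes called lower (blue) lie between −2.90 and −0.59 across the whole range of levels up to that of Sfn, and the 8 called higher (red) lie between 0.62 and 2.00, while points farther from 0 that stay grey did not pass the test.

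The steepest fall was in S100a3, a calcium-binding protein of the S100 family, which read 13 and 7 in BI-9564 and 1 and 0 in P+B. Its log2 difference was −2.90 ± 0.44 (SE; adjusted p = 0.0317), at values so low that a single unit of rounding counts, and its exons overlap those of Gm42674 and Gm23464. Flnc, which encodes the actin-crosslinking protein filamin C, read 38 and 29 in BI-9564 and 10 and 5 in P+B (log2 difference −2.07 ± 0.24, adjusted p = 0.0118). In DMSO Flnc read 52 and 61 and with PFI-3 alone 25 and 21, so the P+B libraries held the lowest values of all 4 groups. Vgf, the precursor of secreted neuropeptides, fell from 9 and 15 to 3 and 2 (log2 difference −1.87 ± 0.31, adjusted p = 0.046).

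Emp1, which encodes an epithelial membrane protein and spans 135362545 to 135383173 on chromosome 6 of GRCm38, had the smallest adjusted p-value of the comparison. It read 136 and 141 in DMSO, 80 and 75 in PFI-3, 78 and 85 in BI-9564, and 21 and 26 in P+B. Either compound alone gave close to the same level, and no library outside P+B came near the P+B values. The log2 difference between P+B and BI-9564 was −1.76 ± 0.11 (SE; adjusted p = 0.00404, and 0.00463 without the block).

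Sequences before annotated starts of genes that fell are shown because the induced factor, JUN, is a subunit of AP-1. Its sites were searched for as TGANTCA, a pattern with any base at the centre that reads the same on both strands. RefSeq promoter windows on GRCm38.p6, each from 250 bases before to 50 bases after an annotated start, were at hand for 56 of the 74 genes called lower and for 5 of the 8 called higher. At least 1 window held TGANTCA in 10 of the 56 (17.9%) and in 0 of the 5, beside 425 of 7783 tested genes (5.46%). For all genes with a window the share was 2425 of 27025 (8.97%), and per window it was 7.81% of all 32851. A gene with several starts has more windows. Among genes with a single window the counts were 3 of 37 (8.11%) for the genes called lower and 243 of 6185 (3.93%) for all tested genes. For all genes with a single window, tested or not, the count was 1825 of 22862 (7.98%). The 10 genes were Emp1, Dmkn, Plet1, Tmcc3, Capn2, Itga3, Plaur, Glrx, Rnh1 and Csrnp1. The 160 bases before 1 start of each of the 4 with the largest falls are given below 5′ to 3′ on the + strand, with TGANTCA in capitals. They lie at chr6:135362771-135362930 (Emp1, with sites that begin 145 and 25 bases before the start), chr7:30763596-30763755 (Dmkn, 89 bases), chr9:50494365-50494524 (Plet1, 144 bases) and chr10:94550760-94550919 (Tmcc3, 15 bases).
Emp1: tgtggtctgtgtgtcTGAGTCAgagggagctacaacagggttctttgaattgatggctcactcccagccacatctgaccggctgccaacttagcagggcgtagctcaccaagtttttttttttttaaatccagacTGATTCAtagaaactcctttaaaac
Dmkn: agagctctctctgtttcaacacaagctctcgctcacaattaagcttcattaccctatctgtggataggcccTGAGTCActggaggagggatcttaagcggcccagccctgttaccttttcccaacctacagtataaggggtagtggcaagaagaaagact
Plet1: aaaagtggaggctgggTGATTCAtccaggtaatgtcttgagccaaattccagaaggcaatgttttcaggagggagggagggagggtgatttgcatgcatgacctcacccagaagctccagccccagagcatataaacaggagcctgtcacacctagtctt
Tmcc3: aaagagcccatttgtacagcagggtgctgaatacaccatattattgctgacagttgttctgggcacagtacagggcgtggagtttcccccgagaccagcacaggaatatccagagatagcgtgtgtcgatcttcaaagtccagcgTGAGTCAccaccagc
The Emp1 and Tmcc3 stretches lie inside the spans of their genes (Tmcc3 spans 94311949 to 94590956). They precede 1 of 2 annotated starts of Emp1 and 1 of 6 of Tmcc3. Whether these starts were used in the cells was not tested. A match is a run of letters with any base at the centre, and binding was not measured in these libraries. The only matches of Plet1 and Itga3 were spelled TGATTCA and TGAATCA. Emp1 was the only 1 of the 4 printed stretches with 2 matches, spelled TGAGTCA and TGATTCA. Dmkn, which encodes the secreted epidermal protein dermokine, fell from 21 and 22 to 6 and 7 (log2 difference −1.59 ± 0.22). Plet1, a surface protein of placental and epithelial progenitors, read 75 and 73 in BI-9564 and 29 and 31 in P+B (−1.28 ± 0.12), and its exons overlap the antisense gene Plet1os. Tmcc3, a coiled-coil membrane protein, went from 16 and 15 to 7 and 5 (−1.25 ± 0.20).

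The other genes among the 15 largest falls were of mixed function. Ly6a, the surface protein Sca-1, read 24 and 7 in BI-9564 and 10 and 1 in P+B, a fall within each pair (log2 difference −1.59 ± 0.27) although the groups overlapped, since its replicates differed at least as much as its groups. A730049H05Rik, whose exons overlap Adamts9, fell from 17 and 15 to 4 and 6 (−1.52 ± 0.20). Gsn, the actin-severing protein gelsolin, fell from 30 and 28 to 14 and 7 (−1.45 ± 0.21). Cntfr, the receptor subunit for ciliary neurotrophic factor, fell from 7 and 13 to 2 and 4 (−1.45 ± 0.25), with an adjusted p of 0.0495 that lies just inside the threshold. Pla2g7, which hydrolyses platelet-activating factor, read 35 and 32 against 16 and 9 (−1.40 ± 0.18), and Serpinb9b, a serine protease inhibitor, read 24 and 20 against 10 and 7 (−1.29 ± 0.14). Only Ly6a of these 6 had overlapping groups.

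Within the AP-1 family the called genes were Fosl1, Atf3 and Fosl2, all lower in P+B. Of 12 tested AP-1 genes 3 were called lower, none was called higher and 10 lay below 0 (median log2 difference −0.26, against 0.02 for all tested genes). Fosl1, which encodes the JUN partner FRA-1, read 28 and 43 in BI-9564 and 12 and 9 in P+B (log2 difference −1.65 ± 0.23, adjusted p = 0.0233, and 0.0714 without the block), and its exons overlap Ccdc85b. Atf3, a stress-induced partner of JUN, read 29 and 34 against 10 and 13 (−1.38 ± 0.13, adjusted p = 0.00635). Atf3 in BI-9564 was at its DMSO level of 29 and 32, whereas Fosl1 in BI-9564 was below its DMSO level of 47 and 67. Fosl2, another FOS-related partner, fell from 35 and 33 to 19 and 14 (−1.01 ± 0.17, adjusted p = 0.046, and 0.11 without the block). Junb, Jund, Atf2 and Atf7 were not called, with log2 differences of −0.02, −0.21, −0.04 and 0.05. Bach1, Mafk, Mafg and Maff were not called either, at −0.36, −0.31, 0.31 and −0.12.

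Jun itself, the induced gene, read 1970 and 2877 in DMSO, 1570 and 2227 in PFI-3, 2071 and 3011 in BI-9564, and 1569 and 2159 in P+B. Both replicate 2 libraries with PFI-3 read higher than both replicate 1 libraries without it, so the groups overlapped, but within the pairs Jun was lower in P+B (log2 difference −0.44 ± 0.04, adjusted p = 0.00635, and 0.769 without the block). That fold is under 1.5, so Jun was not among the called genes. Its values may include the transgene as well as the gene of the cells, and the part of the lower Jun level in the other differences was not tested. Among the genes of the proteins that the compounds bind, Smarca4 read 137 and 147 in BI-9564 and 136 and 147 in P+B, Pbrm1 read 46 and 47 against 45 and 46, Brd7 read 68 and 90 against 74 and 70, and Brd9 read 27 and 21 against 23 and 23. None of these 4 was called, their log2 differences lay between −0.12 and −0.01, and Smarca2 was under the level filter.

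The study follows 6 genes as downstream targets of JUN, most of which it also measured after these compounds, so their direction here is not independent evidence. The 3 that passed the level filter, Fosl1, Anxa1 and Fosl2, were all called lower, with a median log2 difference of −1.36. Anxa1, a calcium-dependent membrane-binding annexin, read 63 and 52 in DMSO, 39 and 26 in PFI-3, 45 and 40 in BI-9564, and 21 and 12 in P+B (log2 difference −1.36 ± 0.16, adjusted p = 0.0133, and 0.153 without the block). The other three genes were too low to be tested with the rest. Pxdc1 read 6 and 6 in BI-9564 and 0 and 1 in P+B, Runx1, a transcription factor of blood development, read 6 and 6 against 1 and 1, and Tgfbi, a secreted matrix protein, read 1 and 2 against 0 and 1. In a fit with genes down to a mean of 1 their adjusted p-values were 0.101, 0.154 and 0.488, so none of these differences passed.

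**Figure D2:**
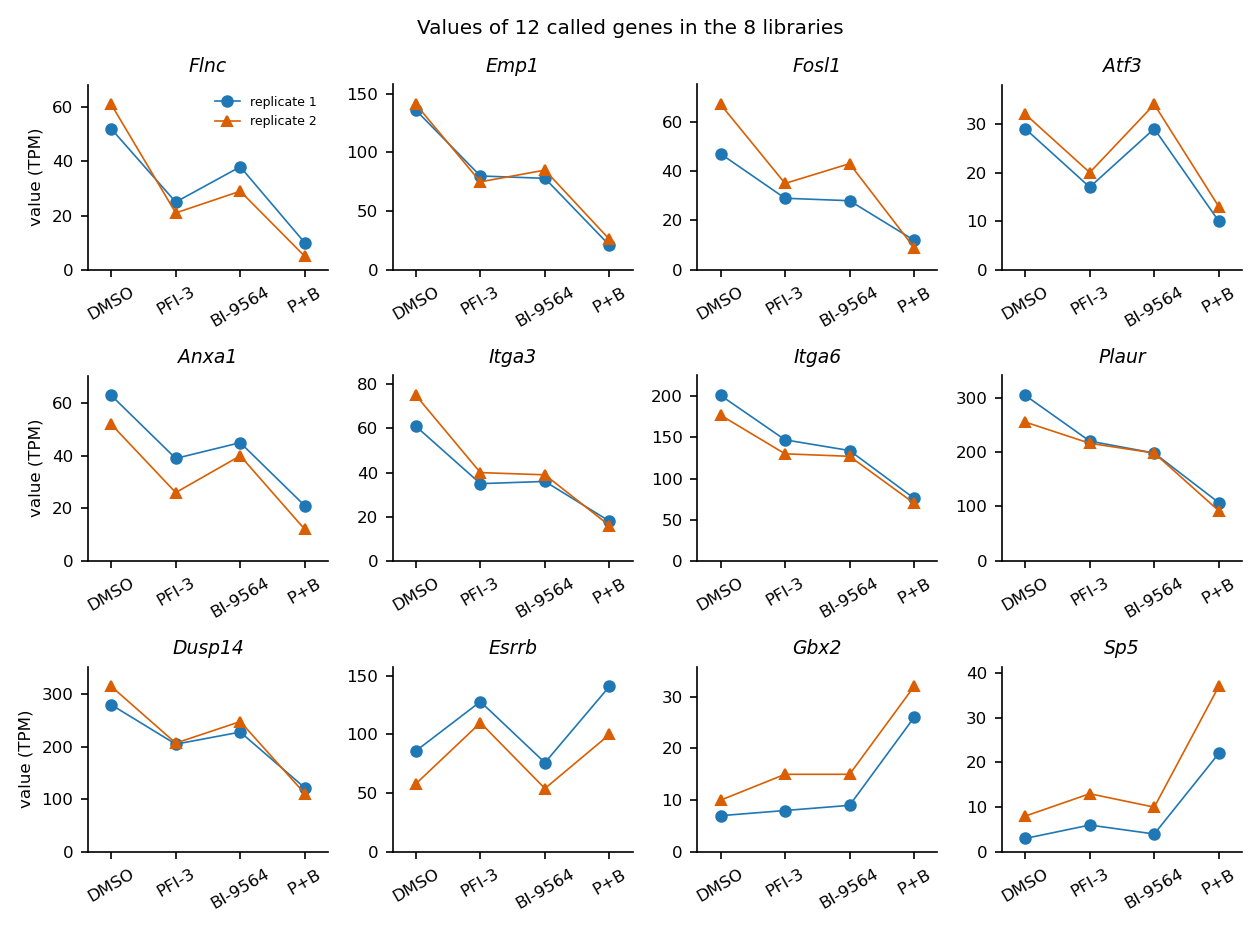
Each panel shows 1 gene, with its value in TPM from 0 on the vertical axis and the 4 groups on the horizontal axis, circles for replicate 1 and triangles for replicate 2 joined by lines. The genes of the upper rows and Dusp14 have their lowest values in both P+B libraries (Emp1 at 21 and 26), while Gbx2 and Sp5 have their highest values there (Sp5 at 22 and 37) and Esrrb is high in both groups with PFI-3.

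Among genes of attachment the integrin subunits Itga3 and Itga6 fell. Of 26 tested genes of cell-substrate adhesion 2 were called lower and none higher, 20 lay below 0, and the median log2 difference was −0.17. Itga3, an integrin subunit of laminin receptors, read 36 and 39 in BI-9564 and 18 and 16 in P+B (−1.10 ± 0.13, adjusted p = 0.0148). Itga6, its close relative, read 134 and 127 against 76 and 70 (−0.83 ± 0.07, adjusted p = 0.00635). In DMSO Itga6 read 201 and 177 and with PFI-3 alone 147 and 130, so each single compound lay between DMSO and P+B. Other subunits of laminin receptors were not called. Itga7 read 5 in both BI-9564 libraries and 2 in both P+B libraries, Itgb1 had a log2 difference of −0.26, and Itgb4, the partner of Itga6, read 4 and 3 in BI-9564 and 5 and 8 in P+B (0.72). The focal adhesion genes Vcl, Tln1, Ptk2 and Ilk were not called, with log2 differences of −0.17, 0.02, −0.00 and −0.18. Of 21 tested extracellular matrix genes 2 were called lower and none higher (14 below 0, median −0.06). Lama3, a laminin chain, was among them and fell from 15 and 21 to 8 and 7 (−1.14 ± 0.19).

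Cytoskeletal and calcium-binding genes held several of the larger falls. Of 28 tested genes of actin crosslinking and contraction 3 were called lower, none higher, and 24 lay below 0 (median −0.28). Besides Flnc, those called were the keratins Krt8 and Krt18, which pair with each other in the intermediate filaments of simple epithelia and so do not act on actin. Krt8 fell from 97 and 69 to 53 and 30 (−1.02 ± 0.12, and adjusted p = 0.381 without the block) and Krt18 from 58 and 38 to 27 and 20 (−0.98 ± 0.12, adjusted p = 0.238 without the block). Of 12 tested annexin and S100 genes 3 were called lower, none higher, and 10 lay below 0 (median −0.46). These were S100a3, Anxa1 and S100a6. S100a6 read 252 and 99 in BI-9564 and 148 and 51 in P+B, a fall of 0.85 on the log2 scale within the pairs while the groups overlapped (adjusted p = 0.862 without the block). S100a10, S100a11 and Anxa7 were past the adjusted p but under the fold of 1.5, with log2 differences of −0.57, −0.41 and −0.52.

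Among 22 tested genes of cell junctions and epithelial-mesenchymal regulation, 3 were called lower, none was called higher and 19 lay below 0 (median −0.27). They included a claudin and a desmosomal gene. Cldn6, a tight junction claudin, read 58 and 82 in BI-9564 and 29 and 26 in P+B (−1.30 ± 0.16, adjusted p = 0.0147). Dsp, the desmosomal protein desmoplakin, fell from 27 and 32 to 13 and 17 (−0.94 ± 0.12). The trophoblast markers given above, a lineage that also expresses keratins and junction genes, summed in both P+B libraries to a value within the range of BI-9564. No value of a single trophoblast marker was above 10 in any library, and a part of such cells in these falls was not tested. Sfn, an epithelial protein of the 14-3-3 family outside the lists, was among the most abundant of the genes that fell, at 597 and 457 in BI-9564 and 336 and 235 in P+B (−0.89 ± 0.08).

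Growth factor signalling gave 5 called genes of 25 tested, all lower, although 14 of the 25 lay below 0 and the median was −0.08. Hbegf, a ligand of the epidermal growth factor receptor, fell from 19 and 15 to 8 and 6 (−1.17 ± 0.15). Dusp5, Dusp14 and Dusp1, phosphatases that switch off MAP kinases, were all called. Dusp5 read 77 and 86 in DMSO, 74 and 65 in BI-9564 and 34 and 28 in P+B (−1.14 ± 0.12, adjusted p = 0.00906). Dusp14 read 228 and 248 in BI-9564 and 122 and 111 in P+B (−1.02 ± 0.08, adjusted p = 0.00635), and Dusp1, whose exons overlap Ergic1, read 293 and 263 against 156 and 139 (−0.91 ± 0.08). Phlda1, an immediate-early gene, fell from 242 and 250 to 152 and 141 (−0.74 ± 0.08). Other ERK feedback genes were not called, among them Spry2, Etv4 and Etv5 with log2 differences of 0.25, −0.10 and 0.21. The medium of all groups held a MEK inhibitor.

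Smaller numbers of calls came from 4 further lists. Of 11 tested proteases and protease regulators, 9 lay below 0 (median −0.17) and only Plaur, the urokinase receptor, was called, at 198 in both BI-9564 libraries and 107 and 92 in P+B (−0.99 ± 0.08, adjusted p = 0.00635). Of 18 YAP-TEAD targets 11 lay below 0 (median −0.10) and Cyr61, a matricellular protein, was called lower at 246 and 169 against 162 and 96 (−0.70 ± 0.11, adjusted p = 0.554 without the block). Of 30 MYC and ribosome biogenesis genes 22 lay below 0 (median −0.05) and only Myc itself was called, at 32 and 33 in BI-9564 and 16 and 15 in P+B (−1.02 ± 0.14). Of 21 p53 response genes 11 lay below 0 (median −0.05) and only Plk2, a polo-like kinase, was called. Plk2 differed in pattern from the genes above, because BI-9564 alone read 171 and 146, above the 119 and 104 of DMSO, and P+B read 112 and 96 (−0.60 ± 0.09).

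Of the 8 genes that rose, Sp5 had the largest log2 difference and Mipol1, given below, the next. Sp5, a direct target of Wnt signalling, lies at 70474923 to 70477729 on chromosome 2 and read 3 and 8 in DMSO, 6 and 13 in PFI-3, 4 and 10 in BI-9564, and 22 and 37 in P+B. Its log2 difference between P+B and BI-9564 was 2.00 ± 0.21 (SE; adjusted p = 0.00953, and 0.346 without the block), and neither compound alone reached the P+B values. Cdx1, a homeobox gene that Wnt also induces, read 14 and 19 in DMSO, 18 and 30 in PFI-3, 10 and 20 in BI-9564, and 24 and 46 in P+B (1.17 ± 0.17, adjusted p = 0.027). With 2 called of 13 tested genes, both higher, 3 below 0 and a median of 0.32, the Wnt response list had the highest median of all 26 lists. Axin2 and Notum, commonly used Wnt targets, did not pass, with log2 differences of 0.54 and 0.72, and Ctnnb1 and Tcf7 stood at −0.04 and −0.00. The medium of all groups held a GSK3 inhibitor, which activates this pathway.

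Of 20 tested genes of naive pluripotency, the ground state that 2i medium holds, 2 were called higher, none lower, and 3 lay below 0 (median 0.28). With PFI-3 alone against DMSO the median of this list was larger, at 0.41, with 19 genes higher and 1 lower. Gbx2, a homeobox factor of the naive state whose exons overlap D130058E05Rik, read 9 and 15 in BI-9564 and 26 and 32 in P+B (1.24 ± 0.19, adjusted p = 0.0387). Esrrb, an orphan nuclear receptor on chromosome 12 (86361117 to 86521628), read 86 and 58 in DMSO, 128 and 110 in PFI-3, 76 and 54 in BI-9564, and 141 and 100 in P+B (0.88 ± 0.10, adjusted p = 0.0118, and 0.352 without the block). Esrrb was thus at one level in both groups with PFI-3 and at a lower level in both groups without it. Klf2 came close at an adjusted p of 0.053 (88 and 60 against 152 and 94), whereas Nanog, Klf4 and Stat3 had log2 differences of 0.42, 0.43 and 0.41 and did not pass. Klf5, Fbxo15 and Dppa3 were the 3 below 0.

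The remaining rises were smaller or at low levels. Mipol1, whose exons overlap Prps1l3, read 3 in both BI-9564 libraries and 10 and 11 in P+B (1.52 ± 0.25), and Zbtb34, a zinc finger protein, read 10 and 12 against 23 and 22 (0.97 ± 0.16). In both genes P+B was also above the DMSO values of 7 and 6 for Mipol1 and 12 and 13 for Zbtb34. Acot13, an acyl-CoA thioesterase, rose from 20 and 18 to 33 and 31 (0.72 ± 0.12), which returned it to its DMSO level of 35 and 33. Mt1, a metal-binding metallothionein, read 906 and 689 in BI-9564 and 1330 and 1103 in P+B (0.62 ± 0.06, adjusted p = 0.00635, and 0.27 without the block). It was the only gene called among 20 NRF2 targets and metallothioneins, of which 10 lay below 0 (median 0.01).

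**Figure D3:**
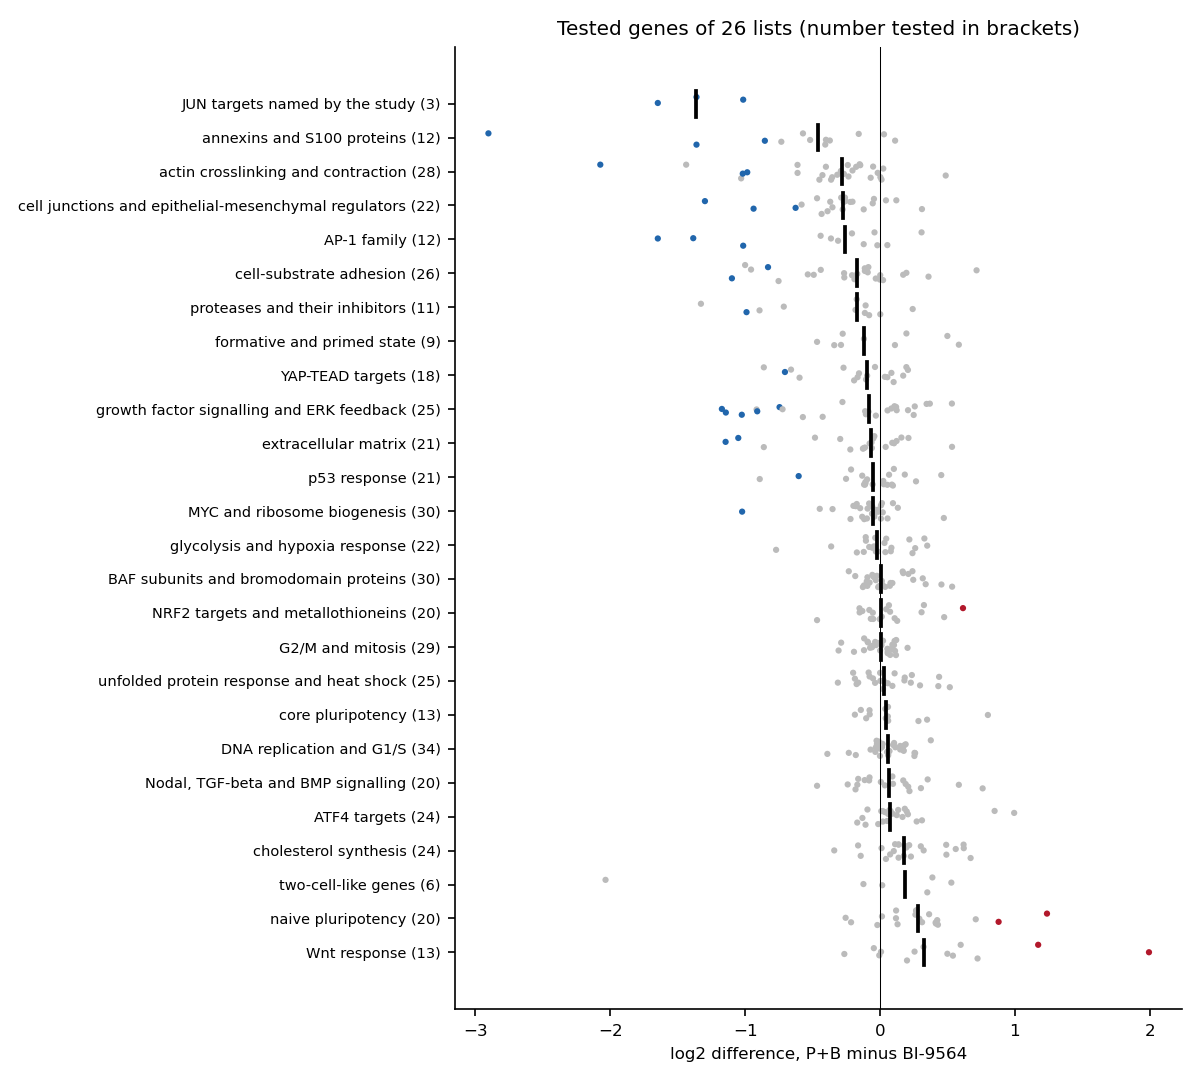
Each row is a gene list with its number of tested genes in brackets, each point is a gene at its log2 difference between P+B and BI-9564 on the horizontal axis (blue called lower, red called higher, grey not called), and the black bar is the median. The medians run from −1.36 for the JUN targets named by the study to 0.32 for the Wnt response, and most lists have their median near 0.

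No gene was called in the other 11 lists. Of 13 core pluripotency genes 5 lay below 0 (median 0.04), and Pou5f1 and Sox2 read 1167 and 1104 against 1211 and 1124 and 93 and 66 against 89 and 75. Lin28a, an RNA-binding protein, had a log2 difference of 0.35 (adjusted p = 0.205). Of 9 formative and primed state genes 5 lay below 0 (median −0.12), led by Nodal and Zic2 (0.58 and 0.50). Among 30 BAF subunits and bromodomain proteins 15 lay below 0 (median 0.00), led by Smarcd3 and Dpf1 at low values (0.54 and 0.46). Nodal, TGF-beta and BMP signalling had 8 of 20 below 0 (median 0.06), with Id3, a BMP target, at 41 and 33 against 71 and 56 (0.76, adjusted p = 0.122). Two-cell-like genes had 2 of 6 below 0 (median 0.18), with Gm4340 at 6 and 11 against 0 and 4 and Zscan4e at 3 and 17 against 5 and 24, both members of families of near-identical copies.

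Stress, metabolic and cell cycle lists were also without calls. ATF4 targets had 5 of 24 below 0 (median 0.07), with the stress factors Ddit3 at 10 and 6 against 16 and 17 and Nupr1 at 4 and 7 against 12 and 9 (adjusted p = 0.256 and 0.35). The unfolded protein response and heat shock list had 9 of 25 below 0 (median 0.03), with the secreted stress protein Manf closest to passing at 115 and 124 against 186 and 158 (0.52 ± 0.09, adjusted p = 0.0522) and Herpud1 at 0.44. The chaperone gene Hspa5 was past the adjusted p (0.0257) but under the fold threshold, with a log2 difference of 0.43. Cholesterol synthesis had 3 of 24 below 0 (median 0.18), led by Dhcr7 at 39 and 30 against 46 and 66 and Tm7sf2 at 0.62. In 34 genes of DNA replication and G1/S 10 lay below 0 (median 0.06), with Gins1 and Ccne2 at −0.39 and 0.38. In 29 genes of G2/M and mitosis 13 lay below 0 (median 0.01), with Cdc20 and Prc1 at −0.31 and −0.29. Glycolysis and hypoxia response had 12 of 22 below 0 (median −0.02), with Ndrg1 and Hk2 at −0.77 and −0.36. Medians this near 0 depend on the scaling, and those of core pluripotency, BAF subunits, NRF2 targets, the unfolded protein response and G2/M changed sign when libraries were centred on their medians, as that of the NRF2 targets did under quantile normalization. The 26 lists held 30 of the 82 called genes, and 52 were in none.

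Among the 52 genes in no list were further called genes with large values or known roles. Lgals3, the carbohydrate-binding protein galectin-3, read 232 and 140 in BI-9564 and 121 and 68 in P+B (−0.98 ± 0.09). Tnfrsf12a, the receptor of the cytokine TWEAK, read 134 and 205 against 68 and 94 (−1.04 ± 0.10), and Plin2, a lipid droplet coat protein, read 178 and 130 against 87 and 76 (−0.90 ± 0.08). Pfkfb3, a regulator of glycolysis, fell from 22 and 30 to 10 and 10 (−1.28 ± 0.19), although the glycolysis list held no call. Csrnp1, Ier5 and Trib1, which are induced early after stimulation, had log2 differences of −0.67, −1.10 and −0.93. Tle4, a corepressor, stood just inside the fold threshold at 89 and 82 against 60 and 53 (−0.59 ± 0.08). Cldn4, a tight junction claudin of the cell junction list, was past the adjusted p. Its log2 difference of −0.58 lay just outside the fold threshold, so it was not called.

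PFI-3 without BI-9564 was compared with DMSO, a comparison that shares no library with P+B against BI-9564. Its libraries did enter the shared spread behind the calls, which favours genes whose 2 pairs here were alike. The counts in both pairs below are therefore partly set by the choice of genes. In that comparison 0 of 10222 genes were called by limma (1143 had an unadjusted p under 0.05), and the smallest adjusted p was 0.116. Nevertheless 73 of the 74 genes lower in P+B than in BI-9564 were also lower with PFI-3 than with DMSO in both pairs, beside 22.42% of all tested genes, and 8 of 8 higher genes were higher in both pairs, beside 27.28%. The exception was Car2, a carbonic anhydrase, which read 38 and 38 in DMSO and 38 and 39 with PFI-3 but 53 and 48 in BI-9564 and 32 and 32 in P+B. Across the tested genes the log2 differences of the 2 comparisons had a Pearson r of 0.29 (0.19 in pair 1 and 0.19 in pair 2), and within P+B against BI-9564 pair 1 and pair 2 had an r of 0.16, where genes are not independent replicates.

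The median log2 difference of the 74 genes called lower was −0.98 with BI-9564 present and −0.52 with BI-9564 absent, and that of the 8 called higher was 1.07 and 0.47. All 82 had the larger difference with BI-9564 present, but they were chosen on that comparison, which inflates it. The difference of the differences, tested directly as the interaction, called 0 genes (588 had an unadjusted p under 0.05, 50 of them among the 82, and the smallest adjusted p was 0.672). The gene with the smallest interaction p below 0 was Lgals3, whose PFI-3 difference was −0.17 without BI-9564 and −0.98 with it (interaction −0.81 ± 0.13). Above 0 it was Gm6969, at −0.26 without and 0.27 with BI-9564 (interaction 0.53 ± 0.09). Dusp5 and Plaur differed little with PFI-3 alone, at −0.29 and −0.35 on the log2 scale, whereas Itga3 and Hbegf stood at −0.84 and −1.02, near their differences of −1.10 and −1.17 with BI-9564 present.

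BI-9564 alone already held most of the genes called lower under their DMSO level. In the fit 68 of the 74 were below DMSO in BI-9564, beside 4695 of all tested genes (45.93%), and their median log2 difference was −0.50, beside 0.02 for all tested genes. This comparison shares the BI-9564 libraries with the one that chose the genes. The 8 genes called higher had a median of −0.16 between BI-9564 and DMSO.

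**Figure D4:**
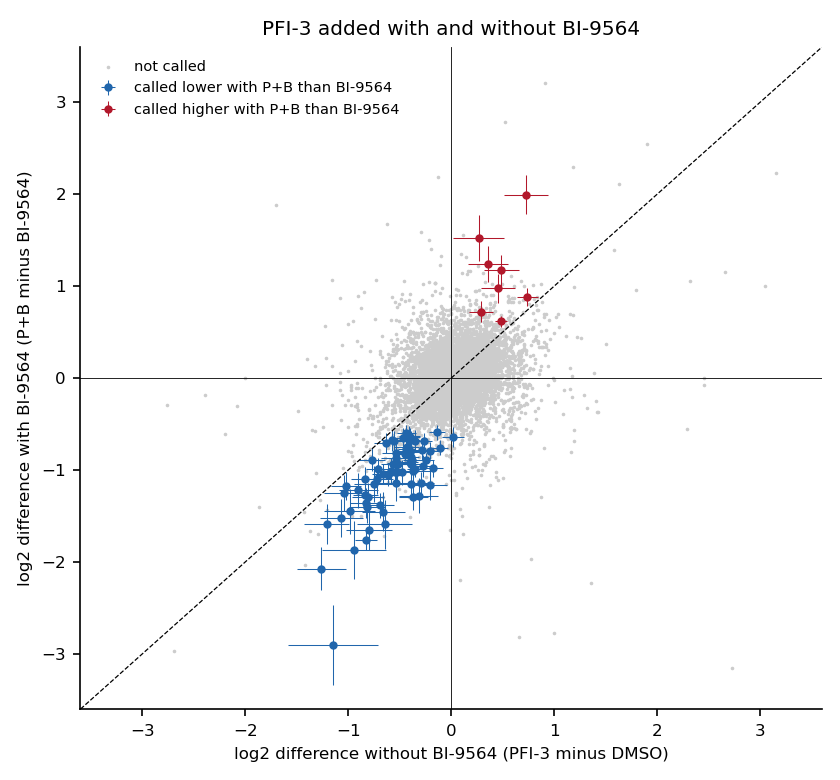
Each point is a tested gene, with the log2 difference of PFI-3 against DMSO on the horizontal axis and of P+B against BI-9564 on the vertical axis, bars of ± 1 SE for the called genes and a dashed line where both are equal (5 genes outside ± 3.6, none of them called, are not shown). The genes called lower (blue, median −0.98 against −0.52) lie left of 0 except Car2 and below the dashed line, and those called higher (red, median 1.07 against 0.47) lie right of 0 and above it.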

How the data were processed

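RNA-seq libraries were made by the authors with a VAHTS mRNA-seq kit, and the submitters' processing notes name bcl2fastq, Bowtie2 2.2.5, RSEM 1.3.0 and build mm10. The deposited values form a score table, TPM rounded by the authors to whole numbers, with 50600 gene names, 94 of them repeated and 27 written as dates. Depth is unknown, so no count model was run. Values were analysed as log2(value + 1) in the 10222 genes whose mean over the 8 libraries was 5 or more, with limma 3.58.1 in R 4.3.3 (lmFit, eBayes with a trend), all 4 groups and the replicate number as a block, which left 3 residual degrees of freedom before moderation. Benjamini-Hochberg adjustment was applied within each comparison. An exact permutation test of 2 against 2 libraries cannot go below p = 0.333 and was not used.

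Groups and replicate numbers came from the labels. Same-numbered libraries were treated as paired because the plan of the comparison set this, and the labels do not say that they were matched. Replicate differences correlated across genes for each of the 6 pairs of groups (Pearson r 0.143 to 0.236, and 0.207 between P+B and BI-9564). The members and lists were chosen with earlier results of these data known, and lists were described without a test. The genes named are the 15 largest falls and up to 10 rises among called genes, the JUN targets of the study, up to 3 genes of each list, the compound targets, Jun and the extremes of the interaction. Genes named beyond these were chosen after their values were seen, and a few genes under the rule are not reported here. Promoter windows are from RefSeq (GRCm38.p6), and positions are from GENCODE M21 (GRCm38), where 80 of the 82 called genes matched by name and 23 had exons that overlap another gene, which cannot be separated where strand was not kept (strandedness is not given in the sources used here). The fit was tested on simulated data. Alternatives were the fit without the block, pseudocounts of 0.5 and 5, level filters of 1, 20 and none, quantile normalization, median centring, no trend, only the 4 compared libraries, no fold threshold, an adjusted p under 0.01 and each library left out in turn.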

Additional observations from a re-analysis of the deposited data

Results flagged for a closer look

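In 5 of the genes named here or called, the difference with PFI-3 had opposite directions with and without BI-9564 in both pairs. The share of all tested genes with this pattern was not counted, so 5 cannot be set against a background. Ccne2, a cyclin of the G1/S transition, was higher in P+B than in BI-9564 (21 and 22 against 14 and 19) and lower in PFI-3 than in DMSO (12 and 17 against 16 and 22), with an interaction of 0.747 on the log2 scale (limma, adjusted p = 0.818). Gm6969, a processed pseudogene, read 141 and 143 in BI-9564 and 167 and 176 in P+B, but 184 and 193 in DMSO and 157 in both PFI-3 libraries. Its interaction was 0.532 (limma, adjusted p = 0.672). Zscan4e, one of several near-identical Zscan4 copies, had an interaction of 0.99 (adjusted p = 0.82) at values between 2 and 24 that differed more between replicates than between groups. Fbxo15, a gene of the naive pluripotency list, was lower in P+B than in BI-9564 (63 and 60 against 73 and 70) and higher in PFI-3 than in DMSO (125 and 104 against 103 and 90), with an interaction of −0.456 (adjusted p = 0.818). Itgb4, an integrin subunit at values between 3 and 9, had an interaction of 1.01 (adjusted p = 0.881). None of the 5 interactions passed the test.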

How the results depend on the processing

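The direction of the 82 calls was kept under every alternative in which they were tested, but their number was not. Changes to the block, the trend, the thresholds, the level filter or the DMSO and PFI-3 libraries leave a gene's difference unchanged. Its direction could not change in those alternatives. P+B against BI-9564 gave 82 calls with the replicate block and 20 without it, 36 with a level filter of 1, 20 at an adjusted p under 0.01, and 0 with no level filter (1749 genes had an unadjusted p under 0.05), with no trend (1225), or with only the compared libraries, with the block (994) or without it (779, an alternative chosen after seeing the data). Leaving out each library in turn gave 0 to 22 calls, namely 22 without either DMSO library, 13 without either PFI-3 library, 0 without either BI-9564 library, and 1 and 0 without P+B replicate 1 and 2. The count was 71 to 100 under the other alternatives, with 7 higher and 93 lower under median centring and 8 higher and 91 lower under quantile normalization, and a filter of 20 left 17 of the 82 untested. PFI-3 against DMSO and the interaction had 0 calls under the other alternatives and 0 to 1 when a library was left out. The pairing was therefore needed for 62 of the calls. Depth is unknown, and 17 called genes had a mean under 20, where whole-number TPM is coarse. With 2 libraries a group, a difference that did not pass is not shown to be absent.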
